A study of Homo sapiens with 18 samples.

Results

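The genes described here are 9 that are characteristic of the epithelial cell surface, of transport to it or of epithelial RNA splicing, namely *EPCAM*, *FXYD3*, *RAB25*, *ST14*, *PRSS8*, *SPINT1*, *SPINT2*, *ESRP1* and *ESRP2*. They were taken from the table by gene symbol, as a set proposed with earlier results of these data known, and are 9 of the 40266 symbols of the table. RNA was sequenced from the human pancreatic ductal adenocarcinoma (PDAC) lines Panc1, a primary tumor line and the mesenchymal-like model of the study, and Panc89, its epithelial model, which was derived from a metastasis in a lymph node. Each line was measured as parental cells, as Holoclone cells (the variant the study treats as cancer stem cells, CSC) and as Paraclone cells (its non-CSC variant), with 3 libraries in each of the 6 groups and 18 in all. The labels give no agent and no introduced allele for any group. The Holoclone and the Paraclone cells of a line were each expanded from a single cell, so that the variant and the particular clone cannot be told apart. The 3 libraries of a group came from different cell passages, and p-values therefore measure the spread between passages.

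Epithelial cells hold together through junctions and adhesion molecules at their lateral membrane, and EPCAM is a transmembrane adhesion molecule of that kind. On the same membrane acts a protease cascade in which matriptase, the product of *ST14*, and prostasin, the product of *PRSS8*, can activate each other and are held in check by the Kunitz-type inhibitors HAI-1 (*SPINT1*) and HAI-2 (*SPINT2*). FXYD3 is a small membrane protein that associates with the Na,K-ATPase, and RAB25 is an epithelial member of the RAB11 family of small GTPases, which return endosomal cargo to the cell surface. ESRP1 and ESRP2 are paralogous RNA-binding proteins that promote the epithelial exon choice in transcripts such as those of *FGFR2*, *CD44* and *CTNND1*, and they are known to be lost in epithelial-to-mesenchymal transition (EMT).

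On GRCh38 (GENCODE 44 annotation), *EPCAM* lies at chr2:47345158-47387601, *FXYD3* at chr19:35115823-35124324, *RAB25* at chr1:156061160-156070504 and *ST14* at chr11:130159782-130210362. *SPINT1* lies at chr15:40844018-40858207 and *SPINT2* at chr19:38244035-38292615, all 6 on the plus strand. *PRSS8* (chr16:31131433-31135727) and *ESRP2* (chr16:68229033-68238102) are on the minus strand of the same chromosome, and *ESRP1* is on chromosome 8.

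Levels are given as TPM, the unit of transcript abundance that is scaled for transcript length and library, and differences as log2 fold changes of TPM + 1, a scale that understates changes near or under 1 TPM. A gene was called in a comparison when its Benjamini-Hochberg adjusted p was under 0.05 in limma over the 16093 genes that reached 1 TPM in at least 3 libraries. All 9 genes passed that filter. *FXYD3*, *RAB25* and *PRSS8* (0 Panc1 libraries at 1 TPM), *ST14* (1 library) and *ESRP1* (2 libraries) passed it only because of Panc89, so that for these 5 genes a higher level in Panc89 was largely fixed by the filter. Without counts in the table, neither the depth of a library nor the counting error of a value near 0 can be given. Per library, 12932 to 14199 genes reached 1 TPM, 5.62% to 9.44% of the TPM came from the mitochondrial genome, and correlations across genes within a group lay between 0.954 and 0.992. The keratin genes *KRT8* and *KRT18* averaged at least 411 TPM in each group, while *CDH1*, the gene of the junction protein E-cadherin, averaged 0.990 to 2.84 TPM in the Panc1 groups and 75.3 to 98.0 TPM in the Panc89 groups. In bulk RNA, fewer cells expressing a gene and less of its RNA per cell cannot be told apart.

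Of the markers of other cell types, *PTPRC*, *CD3E* and *LYZ* stayed under 1 TPM in every library, and the summed leukocyte markers (52.4 to 151 TPM in Panc1, 9.44 to 63.2 TPM in Panc89) consisted almost wholly of *CD68*, which encodes a lysosomal protein. Of the 4 endothelial markers, *VWF* and *KDR* stayed under 1 TPM, and the sum reached 55.2 to 69.1 TPM in parental Panc89 libraries mostly through *PECAM1*, against 1.01 to 8.90 TPM in the Panc89 clones and under 1 TPM in Panc1. The other 2, *PECAM1* and *CDH5*, were called higher in parental Panc89 than in parental Panc1 cells. Both were called lower in each Panc89 clone than in parental Panc89 cells. Of the 6 fibroblast markers, *COL1A1* averaged from 1.01 TPM in Panc1 Paraclone to 24.9 TPM in Panc89 Paraclone cells and each of the other 5 averaged under 1 TPM.

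*EPCAM* differed severalfold among the Panc1 groups. It stood at 12.5, 8.91 and 12.2 TPM in the parental Panc1 libraries, at 29.0, 27.2 and 31.5 TPM in Panc1 Holoclone cells and at 1.28, 1.61 and 2.30 TPM in Panc1 Paraclone cells. The 3 Panc1 groups did not overlap, with Holoclone cells highest and Paraclone cells lowest. In Panc89 it was at 187, 185 and 184 TPM in parental, 205, 165 and 165 TPM in Holoclone and 251, 311 and 275 TPM in Paraclone cells. Here the Paraclone libraries were the highest, and the parental libraries lay within the range of the Holoclone libraries. By mean TPM, *EPCAM* ranked 8583 among the 16093 tested genes in parental Panc1 cells, 5373 in its Holoclone and 12192 in its Paraclone cells, against ranks of 460 to 851 in the Panc89 groups.

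*FXYD3* and *RAB25* were close to absent from the Panc1 table and abundant in Panc89. *FXYD3* was listed at 0 in 4 of the 9 Panc1 libraries and reached at most 0.0979 TPM in the others. In Panc89 it stood at 665, 612 and 672 TPM in parental, 810.2, 764 and 668 TPM in Holoclone and 448, 470.1 and 718 TPM in Paraclone cells. The third Paraclone library lay among the libraries of the other Panc89 groups, so that the 3 groups overlapped. With ranks of 199, 181 and 244 of 16093, *FXYD3* was the most abundant of the 9 genes in parental and Holoclone Panc89 cells.

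*RAB25* was listed at 0 in all 3 Panc1 Holoclone libraries, at 0, 0.107 and 0.260 TPM in parental Panc1 and at 0.147, 0.0959 and 0.0937 TPM in Panc1 Paraclone cells. In Panc89 it was at 182, 242 and 195 TPM in parental, 179, 171 and 169 TPM in Holoclone and 258, 242 and 302 TPM in Paraclone cells, so the Holoclone libraries were the lowest of the 3 groups and did not overlap with either. Its ubiquitous relative *RAB11A* was present in both lines, at a mean of 249 TPM in parental Panc1 and 194 TPM in parental Panc89 cells, and the difference between them was not called (log2 fold change −0.36 ± 0.156 (SE, n = 3 and 3), limma adjusted p = 0.0563). The TPM of *RAB25* was 0.930 to 1.21 times that of *RAB11A* in parental Panc89 cells, 0.689 to 1.17 times in Holoclone and 1.05 to 1.19 times in Paraclone cells.

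**Figure D1:**
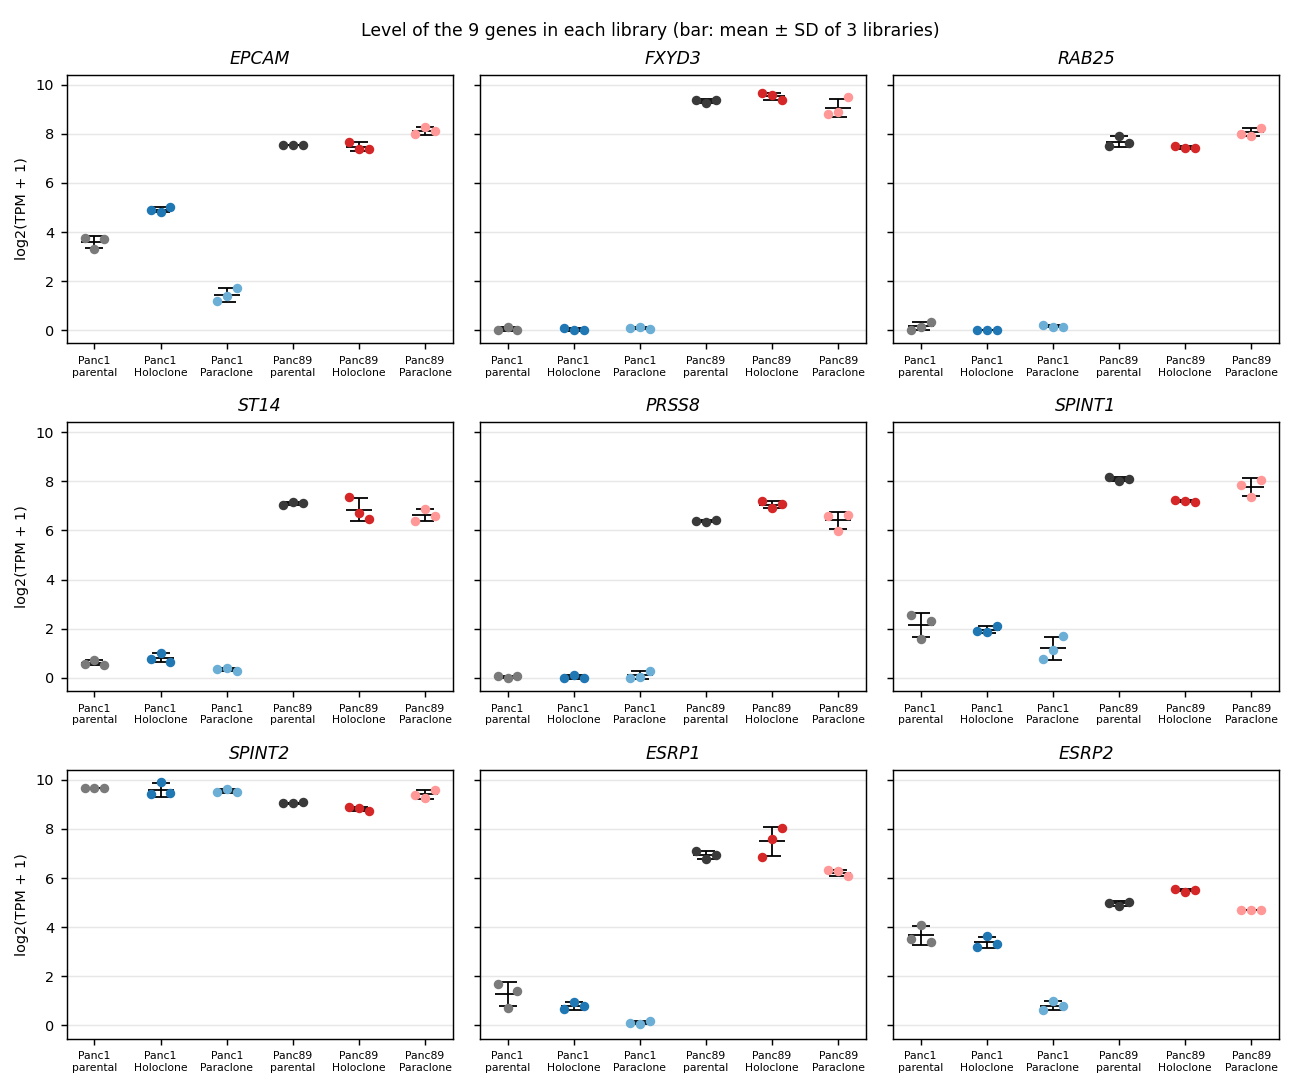
Level of each of the 9 genes in every library as log2(TPM + 1), with the 6 groups on the x axis; points are libraries and bars the mean ± SD of 3 libraries. *FXYD3*, *RAB25* and *PRSS8* lie at the floor in Panc1, *SPINT2* is high in all 6 groups, and *EPCAM* and *ESRP2* drop in Panc1 Paraclone cells.

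The sequence before the transcription start is shown for *RAB25* and *FXYD3*, the members with the largest log2 fold changes between the parental cells. RefSeq start windows on GRCh38.p14 were given for 3 of the 9 genes, *RAB25*, *FXYD3* and *SPINT1*, and only the 250 bases before each start were used. The E-box CACCTG, searched on both strands, is a motif to which EMT factors of the SNAI and ZEB families are known to bind, and it is in capitals where it occurs. The *RAB25* window is chr1:156060910-156061159 and the *FXYD3* window chr19:35117750-35117999, both on the plus strand; the latter lies between exons within the *FXYD3* gene and precedes one of its annotated starts.

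RAB25: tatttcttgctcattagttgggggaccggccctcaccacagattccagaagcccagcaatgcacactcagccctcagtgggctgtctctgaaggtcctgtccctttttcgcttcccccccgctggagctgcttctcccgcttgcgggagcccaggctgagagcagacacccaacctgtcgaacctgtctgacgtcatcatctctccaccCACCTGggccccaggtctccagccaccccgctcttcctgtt
FXYD3: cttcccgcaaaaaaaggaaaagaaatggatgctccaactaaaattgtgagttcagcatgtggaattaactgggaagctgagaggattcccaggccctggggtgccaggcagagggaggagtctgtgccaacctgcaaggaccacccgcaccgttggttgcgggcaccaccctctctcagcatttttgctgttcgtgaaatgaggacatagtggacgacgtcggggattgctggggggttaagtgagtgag

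The *RAB25* window held CACCTG once, 41 bases before the start, and the *FXYD3* window did not hold it. Over all 35116 windows of that length, 17.5% held the motif on either strand. Both windows had 8 CpG dinucleotides against a median of 11 over all windows, with a GC content of 60.4% for *RAB25* and 53.6% for *FXYD3* (median 58.0%). *SPINT1* had 2 windows. The one at chr15:40843798-40844047 held 35 CpG dinucleotides and 3 copies of GGGCGG (the GC box, searched on both strands and found in 42.6% of all windows), and the second held CACCTG 26 bases before its start. A motif match describes the sequence and is no evidence of binding.

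The proteases *ST14* and *PRSS8* were both low in Panc1. *ST14* stood at 0.473, 0.668 and 0.448 TPM in parental, 0.710, 1.04 and 0.574 TPM in Holoclone and 0.274, 0.328 and 0.216 TPM in Paraclone Panc1 cells, with a single library above 1 TPM. In Panc89 it was at 132, 143 and 137 TPM in parental, 166, 104 and 87.8 TPM in Holoclone and 83.3, 117 and 95.8 TPM in Paraclone cells. The Holoclone libraries spread more widely than those of the other groups and overlapped with both. *PRSS8* was listed at 0 in 4 of the 9 Panc1 libraries and did not exceed 0.213 TPM in the rest. Its Panc89 values were 81.9, 79.9 and 85.8 TPM in parental, 146, 119 and 133 TPM in Holoclone and 95.7, 62.4 and 98.9 TPM in Paraclone cells. Every Holoclone library lay above every parental and Paraclone library.

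The inhibitors of the cascade parted from each other. *SPINT1*, like the proteases, was low in Panc1 and abundant in Panc89, with 4.84, 1.99 and 3.98 TPM in parental, 2.74, 2.65 and 3.32 TPM in Holoclone and 0.711, 1.17 and 2.24 TPM in Paraclone Panc1 cells, and 287, 258 and 269.5 TPM in parental, 152, 147 and 143 TPM in Holoclone and 233, 163 and 268 TPM in Paraclone Panc89 cells. *SPINT2* was abundant in both lines. It stood at 804, 805 and 808 TPM in parental, 678, 968 and 706 TPM in Holoclone and 722, 798 and 733 TPM in Paraclone Panc1 cells, and at 524, 529 and 540.0 TPM in parental, 474, 459 and 428 TPM in Holoclone and 665, 608 and 778 TPM in Paraclone Panc89 cells. It was thus the single gene of the 9 with a lower level in parental and Holoclone Panc89 than in the matching Panc1 cells. *SPINT2* ranked between 165 and 294 of 16093 in all 6 groups. Without it, the other 8 genes summed to 28.1 to 30.4 TPM in parental, 41.1 to 45.1 TPM in Holoclone and 3.08 to 5.96 TPM in Paraclone Panc1 libraries, against 1467 to 1849 TPM in the 9 Panc89 libraries.

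In Panc89, where protease and inhibitor were both well measured, the ratio of *SPINT1* to *ST14* in TPM was 1.81 to 2.18 in parental, 0.915 to 1.63 in Holoclone and 1.40 to 2.80 in Paraclone cells. The Holoclone range lay below the parental range and overlapped with that of Paraclone cells. For *SPINT2* over *ST14* the ratio was 3.71 to 3.97 in parental, 2.86 to 4.87 in Holoclone and 5.22 to 8.13 in Paraclone cells, the last being above both other groups. The ratio of *ST14* to *PRSS8* was 1.60 to 1.78 in parental, 0.659 to 1.14 in Holoclone and 0.871 to 1.87 in Paraclone cells. These ratios are descriptions of the libraries and were not tested.

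The splicing regulators *ESRP1* and *ESRP2* were present in different proportions in the lines. *ESRP1* stood at 2.19, 0.646 and 1.66 TPM in parental, 0.563, 0.951 and 0.733 TPM in Holoclone and 0.0722, 0.0313 and 0.123 TPM in Paraclone Panc1 cells. In Panc89 it was at 135, 109 and 123 TPM in parental, 115, 192 and 259 TPM in Holoclone and 78.4, 76.4 and 66.8 TPM in Paraclone cells. In both lines the Paraclone libraries were the lowest and overlapped with neither other group.

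*ESRP2* stood at 10.3, 16.1 and 9.48 TPM in parental, 8.02, 11.4 and 9.01 TPM in Holoclone and 0.528, 0.996 and 0.739 TPM in Paraclone Panc1 cells. Its Panc89 values were 30.8, 28.2 and 31.7 TPM in parental, 46.1, 42.5 and 45.3 TPM in Holoclone and 25.2, 25.1 and 24.8 TPM in Paraclone cells. The order Holoclone, parental, Paraclone held without overlap in Panc89, while in Panc1 the parental and Holoclone libraries overlapped and the Paraclone libraries lay below 1 TPM.

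*ESRP1* exceeded *ESRP2* in each of the 9 Panc89 libraries and *ESRP2* exceeded *ESRP1* in each of the 9 Panc1 libraries. The ratio of *ESRP1* to *ESRP2* in TPM was 4.40, 3.86 and 3.88 in parental, 2.499, 4.52 and 5.73 in Holoclone and 3.11, 3.05 and 2.70 in Paraclone Panc89 cells. In Panc1 it was 0.0401 to 0.211 in parental, 0.0702 to 0.0835 in Holoclone and 0.0314 to 0.167 in Paraclone cells, the last resting on values under 1 TPM of both genes. *ESRP1* was also under 1 TPM in every Panc1 Holoclone library and in the parental Panc1 library with the lowest ratio.

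**Figure D2:**
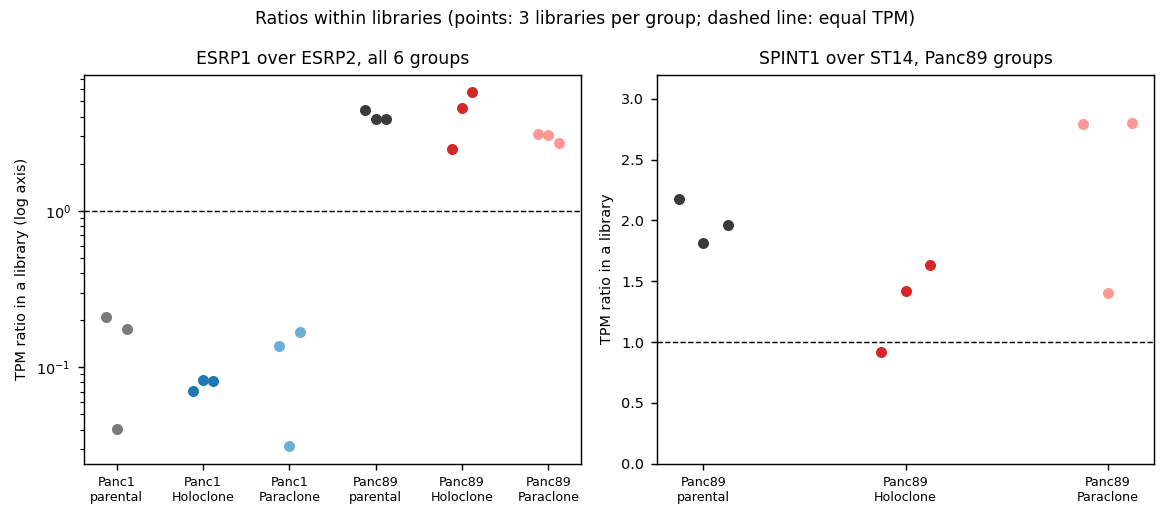
Ratios of TPM within each library: *ESRP1* over *ESRP2* in the 6 groups on a log axis (left) and *SPINT1* over *ST14* in the 3 Panc89 groups on a linear axis (right), with points for libraries and a dashed line at equal TPM. The *ESRP1* to *ESRP2* ratio is above 1 in all Panc89 and below 1 in all Panc1 libraries, and *SPINT1* falls below *ST14* in 1 Panc89 Holoclone library.

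The comparison of parental Panc89 with parental Panc1 cells asks how far the epithelial and the mesenchymal-like model differ in these genes. *EPCAM*, *FXYD3*, *RAB25*, *ST14*, *PRSS8*, *SPINT1*, *ESRP1* and *ESRP2* were higher in Panc89 and *SPINT2* was lower, each without overlap between the libraries, as held for 30.4% of all tested genes upward and 42.9% downward. Thus 8 of the 9 genes were called higher and 1 lower, where 27.5% of all tested genes were called higher and 38.5% lower (66% in either direction). Since 5 of the 8 passed the filter only through Panc89, that count is not read against the share. Of the 4 genes that did not, *EPCAM*, *SPINT1* and *ESRP2* were higher and *SPINT2* was lower. The log2 fold change was 9.30 ± 0.144 (SE, n = 3 and 3, limma adjusted p = 2.53e-16) for *FXYD3* and 7.52 ± 0.124 (adjusted p = 2.53e-16) for *RAB25*. It was 6.50 ± 0.190 for *ST14*, 6.34 ± 0.153 for *PRSS8*, 5.94 ± 0.246 for *SPINT1*, 5.67 ± 0.253 for *ESRP1* and 3.95 ± 0.149 for *EPCAM*, with adjusted p from 1.54e-14 for *PRSS8* to 2.04e-11 for *ESRP1*. *ESRP2* differed least among the higher genes, by 1.30 ± 0.167 (adjusted p = 5.03e-06), or 2.52 times in mean TPM. *SPINT2* fell by 0.60 ± 0.122 on the log2 scale (adjusted p = 4.52e-04), to 0.659 times its mean TPM in Panc1. Over all tested genes the median was −0.18. The sizes for genes near 0 in Panc1 depend on the pseudocount: with 0.1 in place of 1, the log2 fold change was 12.34 for *FXYD3*, 10.03 for *RAB25*, 9.34 for *PRSS8* and 7.78 for *ST14*, which also puts *PRSS8* above *ST14*.

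Holoclone cells of the lines gave the same calls, with 8 of 9 genes higher in Panc89 and *SPINT2* lower (−0.77 ± 0.122, adjusted p = 4.39e-05), where 29.3% of all tested genes were higher and 36.4% lower (65.8% in either direction) and the same 5 genes had passed the filter only through Panc89. None of the 9 overlapped between the lines, as held for 31.5% of all tested genes upward and 37.4% downward. *RAB25*, listed at 0 in all Panc1 Holoclone libraries, is among the 8 and is given no fold change. In Paraclone cells 8 genes other than *SPINT2* were again called higher without overlap, beside 30.2% of all tested genes called higher (60.7% in either direction) and 32.5% that did not overlap upward, and *SPINT2* was not called (−0.14 ± 0.122, adjusted p = 0.337, overlapping libraries). The distance between the lines in *EPCAM* was 2.56 ± 0.149 on the log2 scale in Holoclone cells (adjusted p = 4.54e-10) and 6.69 ± 0.149 in Paraclone cells (adjusted p = 6.45e-15). For *ESRP2* it was 2.14 ± 0.167 (adjusted p = 1.73e-08) and 3.90 ± 0.167 (adjusted p = 1.26e-11). The tests of whether these distances differ are those of the change between the clones, given with the clones.

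**Figure D3:**
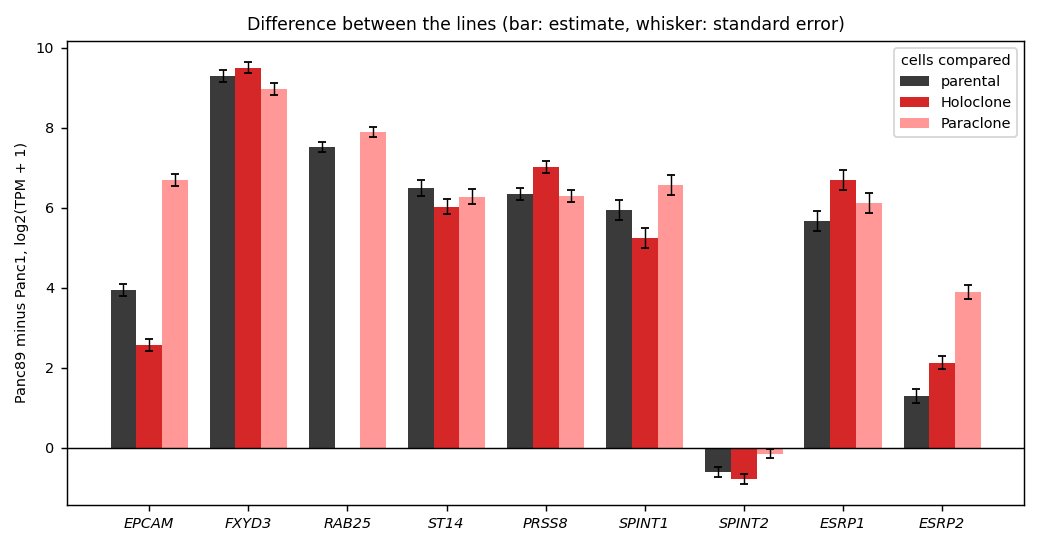
Difference between the lines for each gene, as Panc89 minus Panc1 in log2(TPM + 1), for parental, Holoclone and Paraclone cells; bars are estimates and whiskers standard errors, and no bar is drawn for *RAB25* in Holoclone cells, where Panc1 is listed at 0. Bars for 8 genes point up, *SPINT2* points down, and for *EPCAM* the bar runs from 2.56 in Holoclone to 6.69 in Paraclone cells.

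Holoclone and Paraclone cells of Panc1 were compared to ask how the CSC and the non-CSC variant differ within the mesenchymal-like line. *EPCAM* and *ESRP2* were higher in Holoclone cells by a wide margin, 16.9 times and 12.6 times in mean TPM. The log2 fold change was 3.48 ± 0.149 (SE, n = 3 and 3, limma adjusted p = 1.10e-10) for *EPCAM* and 2.57 ± 0.167 (adjusted p = 1.28e-08) for *ESRP2*. *SPINT1* (0.76 ± 0.246, adjusted p = 0.0228) and *ESRP1* (0.70 ± 0.253, adjusted p = 0.0412) were also called higher, so that 4 of the 9 genes were higher and 0 lower, beside 27.4% and 9.97% of all tested genes (37.3% in either direction). Their libraries did not overlap, as held for 36.6% of all tested genes upward. The median log2 fold change was 0.47 for the 9 genes and 0.19 for all tested genes. That shift over all tested genes moved to 0.00 with upper quartile scaling and the split of calls over all genes from 73.3% to 49.9% higher. *EPCAM* and *ESRP2* remained called under that scaling, and *SPINT1* (0.59, adjusted p = 0.0995) and *ESRP1* (0.63, adjusted p = 0.1001) did not. *ESRP1*, whose means of 0.749 and 0.0756 TPM are both under 1 TPM and stand in a ratio of 9.90, had a log2 fold change of 2.28 with a pseudocount of 0.1 (adjusted p = 1.53e-04). With the pseudocount of 1, its call was also lost without any 1 of the 6 libraries (adjusted p from 0.0539 to 0.121), and that of *SPINT1* without Holoclone library 3 (adjusted p = 0.0799), Paraclone library 1 (0.108) or Paraclone library 2 (0.0696). *ST14*, under 1 TPM on average in both groups, differed by 0.47 ± 0.190 without overlap and was not called (adjusted p = 0.0634). *SPINT2* differed by 0.04 ± 0.122 (adjusted p = 0.835), a sign that turned under either scaling and without Holoclone library 2.

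Other epithelial genes went in both directions between the Panc1 clones. *CDH1*, at means of 0.990 TPM in Holoclone and 2.84 TPM in Paraclone cells, and the keratin gene *KRT19*, at 222 and 1225 TPM, were lower in Holoclone cells (log2 fold changes −0.95, adjusted p = 9.40e-04, and −2.48, adjusted p = 7.18e-06). *ELF3*, an epithelial transcription factor, was lower too (−3.57 ± 0.271, adjusted p = 7.89e-08, 1.43 against 28.5 TPM). *KRT8* and *KRT18* were called higher in Holoclone cells by 0.75 (adjusted p = 0.0326) and 0.50 (adjusted p = 0.0473), with overlapping libraries. The summed leukocyte markers, nearly all *CD68*, were at 52.4 to 69.1 TPM in Holoclone and 124 to 151 TPM in Paraclone cells, with *PTPRC*, *CD3E* and *LYZ* under 1 TPM in both. The summed fibroblast markers were at 6.77 to 10.5 TPM in Holoclone and 1.34 to 1.54 TPM in Paraclone cells, through *COL1A1* (2.12 ± 0.204, adjusted p = 1.03e-06), with the other 5 averaging under 1 TPM. The part of these in the differences was not tested.

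The same comparison in Panc89 divided the 9 genes. *ESRP1* (1.27 ± 0.253, limma adjusted p = 0.00106), *ESRP2* (0.81 ± 0.167, adjusted p = 0.00140), *PRSS8* (0.65 ± 0.153, adjusted p = 0.00367) and *FXYD3* (0.48 ± 0.144, adjusted p = 0.0161) were higher in Holoclone cells. *EPCAM* (−0.65 ± 0.149, adjusted p = 0.00317), *RAB25* (−0.62 ± 0.124, adjusted p = 0.00115) and *SPINT2* (−0.59 ± 0.122, adjusted p = 0.00152) were lower. These 4 higher and 3 lower genes of 9 stand beside 22.4% and 13.3% of all tested genes (35.7% in either direction). Apart from *FXYD3* none overlapped, as held for 25.8% of all tested genes upward and 15% downward. In mean TPM the Holoclone to Paraclone ratio was 2.56 for *ESRP1*, 1.78 for *ESRP2*, 1.55 for *PRSS8* and 1.37 for *FXYD3*, and 0.639, 0.649 and 0.663 for *EPCAM*, *RAB25* and *SPINT2*. *SPINT1* was lower by 0.55 ± 0.246 without overlap but was not called (adjusted p = 0.0945), and was called without Paraclone library 2 (−0.76, adjusted p = 0.0280). *ST14* (0.23 ± 0.190, adjusted p = 0.378) changed sign without Holoclone library 1, to −0.032.

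Among the called genes of this comparison, *FXYD3* had overlapping libraries and was not called without Holoclone library 1 (adjusted p = 0.0536) or 2 (0.0519), or without Paraclone library 1 (0.0898) or 2 (0.0580). The split of calls over all genes was 62.8% higher, and 50.6% higher with upper quartile scaling, under which *FXYD3* was not called (adjusted p = 0.0766). With a pseudocount of 0.1 in place of 1, *FXYD3*, *RAB25* and *PRSS8* were not called (adjusted p = 0.196, 0.139 and 0.174). Their log2 fold changes were then 0.48, −0.62 and 0.66, nearly the same as before. The residual spread of the fit is shared by all 18 libraries, and that pseudocount spreads the Panc1 libraries near 0. A separate fit of the groups lost *FXYD3* (adjusted p = 0.163) and *PRSS8* (0.0728), and median-of-ratios scaling lost *FXYD3* (0.0935). The SD of the log2 levels of *FXYD3* was 0.373 in Panc89 Paraclone and 0.143 in Panc89 Holoclone cells, against 0.0421 in Panc1 Paraclone cells. For *PRSS8* it was 0.365, 0.142 and 0.150. The standard errors of the main fit, which pool these groups, thus understate the spread among Panc89 Paraclone libraries for both genes. The keratin genes *KRT8*, *KRT18* and *KRT7* were lower in Panc89 Holoclone cells by 0.98, 0.89 and 1.05 on the log2 scale (adjusted p = 0.00787, 0.00180 and 0.00242), while *CDH1* was not called (−0.05, adjusted p = 0.884). The leukocyte marker sum was 18.4 to 25.9 TPM in Holoclone and 34.5 to 63.2 TPM in Paraclone cells, again from *CD68*, the endothelial sum 1.01 to 2.17 and 2.95 to 8.90 TPM, and the fibroblast sum 10.2 to 21.8 and 23.8 to 26.1 TPM. The part of these in the differences was not tested.

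The change from Paraclone to Holoclone cells differed between the lines for 5 of the 9 genes, 1 higher and 4 lower in Panc89 than in Panc1, where 14.8% and 20.4% of all tested genes were called higher and lower (35.1% together). For *EPCAM* the change in Panc89 minus that in Panc1 was −4.13 ± 0.211 (SE, n = 3 in each of 4 groups, limma adjusted p = 1.43e-09), from opposite directions in the lines. *ESRP2* was higher in Holoclone cells of both lines, with the smaller change in Panc89 (−1.76 ± 0.237, adjusted p = 3.63e-05). *SPINT1* (−1.32 ± 0.348, adjusted p = 0.00810) and *SPINT2* (−0.63 ± 0.173, adjusted p = 0.0103) differed in the same direction. *PRSS8* (0.71 ± 0.217, adjusted p = 0.0182) lay at the floor in Panc1, so that its value is in effect the change in Panc89. With upper quartile scaling the calls of *PRSS8* and *SPINT2* were lost (adjusted p = 0.0593 and 0.0804) and *RAB25* was called (−0.58, adjusted p = 0.0373). Median-of-ratios scaling also lost the calls of *PRSS8* and *SPINT2* (adjusted p = 0.0699 and 0.0856), and a separate fit of the groups that of *PRSS8* (0.0528). *ESRP1*, higher in Holoclone cells of each line, showed a difference of 0.57 ± 0.358 that was not called (adjusted p = 0.237), that was called without Panc89 Holoclone library 1 (0.89, adjusted p = 0.0301) and that turned to −1.002 with a pseudocount of 0.1 (adjusted p = 0.147). *FXYD3* (0.53, adjusted p = 0.0549), *RAB25* (−0.46, adjusted p = 0.0524) and *ST14* (−0.24, adjusted p = 0.527) were not called. Like *PRSS8*, *FXYD3* and *RAB25* lay at the floor in Panc1, with 0 libraries at 1 TPM, so that their values rest mainly on Panc89. *ST14* reached 1 TPM in only 1 Panc1 library. *FXYD3* was called without Panc89 Holoclone library 3 (0.61, adjusted p = 0.0430) or Paraclone library 3 (0.75, adjusted p = 0.00170), and *RAB25* without Panc89 Paraclone library 2 (−0.53, adjusted p = 0.0335), with median-of-ratios scaling (−0.59, adjusted p = 0.0329) or in a separate fit of the groups (−0.46, adjusted p = 0.0482). With a pseudocount of 0.1, *RAB25* turned to 0.46 (adjusted p = 0.464), *ST14* was called (−0.97, adjusted p = 0.0376) and *PRSS8* was not (1.01, adjusted p = 0.141).

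**Figure D4:**
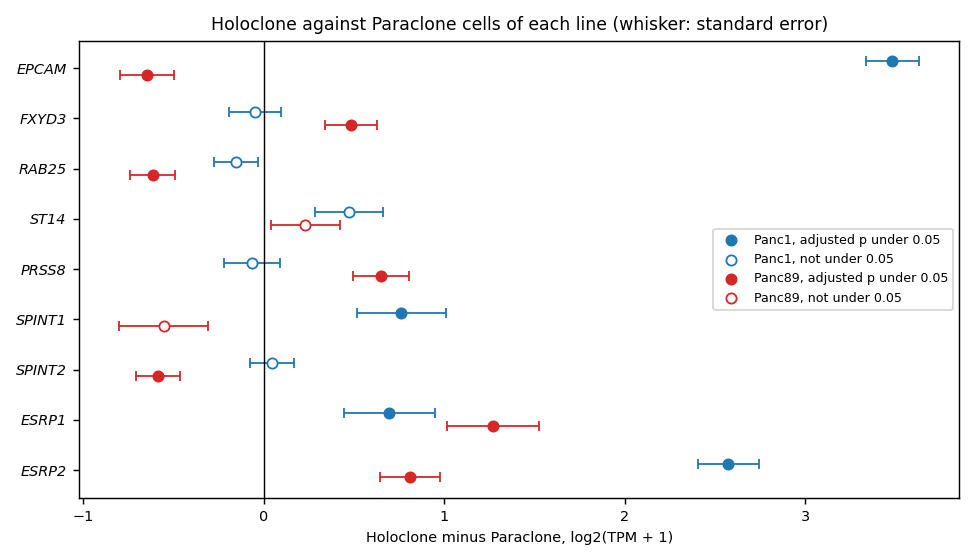
Holoclone minus Paraclone cells in log2(TPM + 1) for each gene in Panc1 (blue) and Panc89 (red); points are estimates, whiskers standard errors, and filled points have an adjusted p under 0.05. *EPCAM* lies at 3.48 in Panc1 and at −0.65 in Panc89, whereas *ESRP1* and *ESRP2* lie to the right of 0 in both lines.

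Against the parental cells, 4 of the 9 genes were lower in Panc1 Paraclone cells and 1 was higher in Panc1 Holoclone cells. *ESRP2* (−2.86 ± 0.167, limma adjusted p = 6.12e-09), *EPCAM* (−2.16 ± 0.149, adjusted p = 3.54e-08), *ESRP1* (−1.16 ± 0.253, adjusted p = 0.00300) and *SPINT1* (−0.95 ± 0.246, adjusted p = 0.00926) were lower in Panc1 Paraclone than in parental cells, 4 of 9 genes beside 21.3% of all tested genes, and 0 were higher (7.31%, or 28.6% in either direction). The libraries of *ESRP2*, *EPCAM* and *ESRP1* did not overlap, as held for 31.1% of all tested genes downward. The *SPINT1* libraries overlapped, and its call was lost without parental library 1 (−0.75, adjusted p = 0.0538) or in a separate fit of the groups (adjusted p = 0.108). Over all genes, calls in this comparison were 25.6% higher and, with upper quartile scaling, 52.7% higher. In Panc1 Holoclone cells *EPCAM* was higher than in parental cells (1.32 ± 0.149, adjusted p = 2.77e-05, 2.61 times in mean TPM). It was the 1 gene of 9 called higher, with 0 lower, beside 5.87% and 5.06% of all tested genes (10.9% together), and did not overlap, as held for 16.9% of all tested genes upward. The fibroblast sum was 12.5 to 14.6 TPM in parental, 6.77 to 10.5 TPM in Holoclone and 1.34 to 1.54 TPM in Paraclone cells (for Paraclone against parental cells, *COL1A1* −2.79 ± 0.204, adjusted p = 6.65e-08) and the leukocyte sum 88.0 to 96.9, 52.4 to 69.1 and 124 to 151 TPM, and their part in the differences was not tested. The comparisons with parental cells share the parental libraries, and each is given by its own values.

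In Panc89 the differences from parental cells were smaller. Holoclone cells had higher *PRSS8* (0.68 ± 0.153, limma adjusted p = 0.00418) and *ESRP2* (0.55 ± 0.167, adjusted p = 0.0256) and lower *SPINT1* (−0.88 ± 0.246, adjusted p = 0.0163), or 2 of 9 genes higher and 1 lower beside 16.1% and 8.61% of all tested genes (24.7% in either direction). None of the 3 overlapped, as held for 27.6% of all tested genes upward and 13.6% downward. The *ESRP2* call was lost without any 1 of the 6 libraries (adjusted p from 0.0504 to 0.0855) and under both scalings (0.0717 and 0.0656), and that of *SPINT1* without parental library 1 (adjusted p = 0.0557). With a pseudocount of 0.1 none of the 3 was called (adjusted p = 0.194 for *PRSS8*, 0.0683 for *SPINT1* and 0.0629 for *ESRP2*). Their log2 fold changes were then 0.68, −0.88 and 0.56, nearly the same as before, while the residual spread is shared with Panc1 libraries near 0. Without Holoclone library 1, which had the highest *ST14* and the lowest *ESRP1* of its group, *ESRP1* was called higher (0.87, adjusted p = 0.00989) and *ST14* lower (−0.52, adjusted p = 0.0199). Calls over all genes were 65.2% higher, and 50.5% higher with upper quartile scaling. The endothelial marker *PECAM1* averaged 60.1 TPM in parental and 0.856 TPM in Holoclone cells. Both *PECAM1* and *CDH5* were called lower in Holoclone cells, with *VWF* and *KDR* under 1 TPM in both groups. The fibroblast sum was 20.6 to 27.4 TPM in parental and 10.2 to 21.8 TPM in Holoclone cells. The part of these in the differences was not tested.

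Panc89 Paraclone cells had higher *EPCAM* (0.58 ± 0.149, adjusted p = 0.0116) and *RAB25* (0.38 ± 0.124, adjusted p = 0.0447) than parental cells, 2 of 9 genes beside 9.37% of all tested genes, and 0 were lower (10%, or 19.4% in either direction). Neither overlapped, as held for 18.2% of all tested genes upward. The *RAB25* call was lost without parental library 1 (adjusted p = 0.204) or 3 (0.153), without Paraclone library 1 (0.0851) or 3 (0.204), and with upper quartile scaling (0.0628) or a separate fit of the groups (0.142). *ST14* was called lower with that scaling (−0.47, adjusted p = 0.0423) and *ESRP1* in the separate fit (−0.72, adjusted p = 0.0151). *SPINT2* (0.36, adjusted p = 0.0535) and *ESRP1* (−0.72, adjusted p = 0.0592) did not overlap between the groups and were not called. Without Paraclone library 2, *SPINT2* was called higher (0.44, adjusted p = 0.0230) and *ST14* lower (−0.61, adjusted p = 0.0386), and without Paraclone library 3, *FXYD3* was called lower (−0.50, adjusted p = 0.00723).

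The genes that work with the 9 were followed in fixed lists, counted in the order parental Panc89 against Panc1, Panc1 clones and Panc89 clones. Their counts stand beside 27.5% higher and 38.5% lower, 27.4% and 9.97%, and 22.4% and 13.3% of all tested genes. List genes near 0 in some groups may have passed the filter only through others, which largely fixes the direction of their call. How many did so is not given here, and no count is read against these shares. Of all calls between Panc1 clones, 73.3% were higher in Holoclone cells, and 49.9% with upper quartile scaling. The other membrane-anchored serine proteases were mostly under the filter, with 5 of 19 tested. Between parental cells 4 of these were higher in Panc89 and 1 lower, between Panc1 clones 1 was higher in Holoclone cells and 0 lower, and between Panc89 clones 2 were higher and 1 lower. *TMPRSS4* rose from 0.0178 TPM in parental Panc1 to 29.4 TPM in parental Panc89 cells (log2 fold change 4.90 ± 0.421, adjusted p = 5.20e-08) and was higher in Panc89 Holoclone than Paraclone cells (4.06 ± 0.421, adjusted p = 2.46e-06). *TMPRSS13* was higher in parental Panc89 cells (3.41 ± 0.134, adjusted p = 4.65e-12). *TMPRSS2* was at 27.7 TPM in Panc1 Holoclone and 0.353 TPM in Paraclone cells (4.40 ± 0.189, adjusted p = 1.10e-10), the same direction as *EPCAM*.

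Of the 13 substrates of matriptase and prostasin and their partners, 12 were tested, and 3 were higher and 7 lower in parental Panc89 cells. *PLAU*, the gene of the urokinase zymogen that matriptase can activate, fell from 371 to 5.27 TPM (−5.92 ± 0.326, adjusted p = 2.48e-10), while that of its receptor, *PLAUR*, rose from 11.5 to 106 TPM (3.09 ± 0.207, adjusted p = 2.55e-09). *SCNN1A*, a subunit of the epithelial sodium channel, was higher (2.36 ± 0.292, adjusted p = 3.30e-06) and *F2RL1*, the protease-activated receptor PAR2, lower (−1.80 ± 0.206, adjusted p = 1.40e-06). Between Panc1 clones 0 were higher and 7 lower in Holoclone cells, among them *HGF*, the gene of hepatocyte growth factor, at 0.134 against 33.3 TPM (−4.92 ± 0.127, adjusted p = 1.01e-12), and *SCNN1A* (−1.94 ± 0.292, adjusted p = 9.47e-05). Between Panc89 clones 2 were higher and 3 lower.

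The list around *EPCAM* holds mainly genes whose products bind or cleave its protein, and 14 of 15 were tested, with 6 higher and 2 lower in parental Panc89 cells. *FHL2* (−5.00 ± 0.187, adjusted p = 2.48e-12) and *CD44* (−2.94 ± 0.196, adjusted p = 2.53e-09) were lower and *CLDN1*, a tight junction gene, was higher (2.37 ± 0.454, adjusted p = 2.56e-04) in parental Panc89 cells. Between Panc1 clones 2 were higher and 4 lower, and between Panc89 clones 5 were higher and 2 lower, with *LEF1* (2.52 ± 0.233, adjusted p = 6.81e-07) and *CLDN1* (1.80 ± 0.454, adjusted p = 0.00576) higher in Holoclone cells.

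For *FXYD3*, 5 of the 14 other FXYD genes and Na,K-ATPase subunits were tested, 2 of them higher and 3 lower in parental Panc89 cells. *FXYD5* was higher (1.82 ± 0.166, adjusted p = 1.02e-07), and the beta subunits *ATP1B1* (−1.30 ± 0.309, adjusted p = 0.00162) and *ATP1B3* (−0.60 ± 0.135, adjusted p = 0.00112) were lower. *ATP1B1* was lower in Panc1 Holoclone than Paraclone cells (−2.25 ± 0.309, adjusted p = 3.91e-05) and higher in Panc89 Holoclone than Paraclone cells (1.38 ± 0.309, adjusted p = 0.00253). In all, 1 gene was higher and 3 lower between Panc1 clones, and 3 higher and 1 lower between Panc89 clones.

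All 14 genes of the RAB11 family, its effectors and cargo were tested, with 5 higher and 6 lower in parental Panc89 cells. The class V myosins, motors of recycling vesicles, exchanged places, *MYO5A* being lower (−3.45 ± 0.138, adjusted p = 5.77e-12) and *MYO5B* higher (2.74 ± 0.161, adjusted p = 5.39e-10). The RAB11-binding *RAB11FIP3* (−2.10 ± 0.125, adjusted p = 6.37e-10) and *RAB11FIP2* (−2.01 ± 0.204, adjusted p = 3.52e-07) were lower, and so was *RAB11B* (−0.58 ± 0.0905, adjusted p = 3.48e-05). Between Panc1 clones 6 were higher and 3 lower, with *MYO5C* at 2.36 ± 0.146 (adjusted p = 7.10e-09), and between Panc89 clones 2 were higher and 4 lower, with *CLIC3* at −3.13 ± 0.266 (adjusted p = 2.94e-07). *RAB11A* and *RAB11B* were called in neither clone comparison.

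Among the 23 other splicing regulators, 20 were tested, and 3 were higher and 8 lower in parental Panc89 cells. *RBM47*, an RNA-binding protein abundant in epithelia, was at 0.687 and 43.0 TPM in parental Panc1 and Panc89 cells (4.70 ± 0.127, adjusted p = 5.74e-14). *RBM24* (−4.19 ± 0.145, adjusted p = 9.87e-13), *KHDRBS3* (−3.57 ± 0.249, adjusted p = 4.30e-09), *QKI* (−2.04 ± 0.196, adjusted p = 1.83e-07) and *RBFOX2* (−1.07 ± 0.113, adjusted p = 5.74e-07), the last 2 known for mesenchymal exon choice, were lower. Between Panc1 clones 7 were higher and 1, *RBFOX2* (−0.58 ± 0.113, adjusted p = 0.000813), was lower in Holoclone cells, opposite to *ESRP2*. Between Panc89 clones 6 were higher, with *SRSF1* at 1.05 ± 0.280 (adjusted p = 0.00828), and 1, *RBM47* (−0.57 ± 0.127, adjusted p = 0.00261), was lower. *RBFOX2* was not called there (0.27, adjusted p = 0.0733).

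The 15 genes with exons that ESRP proteins are known to regulate were all tested for their total level, which does not measure exon choice. Of these, 4 were higher and 6 lower in parental Panc89 cells, including *RALGPS2* (3.13 ± 0.234, adjusted p = 9.81e-09), *SCRIB* (1.02 ± 0.121, adjusted p = 2.04e-06) and *ARHGEF11* (−1.10 ± 0.139, adjusted p = 4.26e-06). Between Panc1 clones 11 were higher and 2 lower in Holoclone cells, beside 27.4% and 9.97% of all tested genes and without correction for the general shift upward in this comparison, with *CD44* lower (−1.68 ± 0.196, adjusted p = 7.94e-06, 584 against 1864 TPM). Between Panc89 clones 3 were higher and 3 lower, with *FGFR2* at 6.46 TPM in Holoclone and 0.0387 TPM in Paraclone cells (2.83 ± 0.156, adjusted p = 2.47e-09).

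Of the 15 EMT and epithelial transcription factors, 14 were tested, and 10 were higher and 2 lower in parental Panc89 cells, with a median log2 fold change of 3.16. The list pools EMT factors with factors of epithelial cells, so its counts and median describe neither kind alone, and the lower genes are not named here. The factors of epithelial cells *EHF* (5.77 ± 0.175, adjusted p = 1.98e-13), *KLF5* (5.57 ± 0.215, adjusted p = 3.66e-12), *TP63* (5.37 ± 0.199, adjusted p = 2.25e-12) and *ELF3* (5.28 ± 0.271, adjusted p = 1.09e-10) led this list. Between Panc1 clones 3 were higher and 4 lower, and between Panc89 clones 5 were higher and 5 lower, with *TP63* at 3.09 ± 0.199 (adjusted p = 1.39e-08).

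The genes most like each of the 9 over the 18 libraries were found by the root mean square (RMS) difference of the centred log2 levels. *EPCAM* was nearest to *DMKN* (RMS 0.424) and *DSP* (0.555), the latter encoding the desmosomal protein desmoplakin, *FXYD3* to *CALB1* (0.347) and *KRT17* (0.413), and *RAB25* to *TNS4* (0.247) and *KRT6A* (0.336). *ST14* was nearest to *TUSC3* (0.262) and *CT83* (0.265), *PRSS8* to *TRIM29* (0.202) and *LAD1* (0.238), and *SPINT1* to *MGST1* (0.419) and *BST2* (0.446). *ESRP1* was nearest to *TRIP6* (0.457) and *SOHLH2* (0.477) and *ESRP2* to *AIF1L* (0.417) and *C6orf132* (0.437). *SPINT2*, with an SD of only 0.337 over the libraries, was nearest to *PFDN5* (0.159) and *SMAP1* (0.162), values to be read beside that small spread. The SD of the other members, from 1.60 for *ESRP2* to 4.77 for *FXYD3*, took in the difference between the lines. A small RMS can therefore reflect a similar step between the lines, and likeness within a line was not measured. None of the 9 genes was among the nearest of another.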

How the data were processed

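The samples are 18 RNA-seq libraries in 6 groups of 3, assigned to line, cell variant and replicate by their deposited labels, and no column lacked a sample. The authors prepared stranded mRNA libraries, used kallisto 0.46.1 with Ensembl GRCh38 transcripts for quantification and tximport for the scaled TPM of each gene, and for their own tests used DESeq2 with apeglm and GAGE. The deposited values are log2(TPM + 1) per gene symbol, and read in this way the TPM of a library sum to 985339 to 988066. Of the 40266 symbols, 10923 were at 0 in every library. Because TPM have lost the library total, no depth, interval or floor for a value of 0 can be stated.

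Groups were compared with the trend method of limma 3.58.1 (R 4.3.3), fitting 6 group means to all 18 libraries for the 16093 genes that reached 1 TPM in 3 or more of them. Two-sided p-values were adjusted over these genes by Benjamini-Hochberg, with a threshold of 0.05. Tables were read with the data.table package (version 1.17.8). Errors of fold changes are standard errors, taken from the residual spread of each gene over all 18 libraries, whichever groups were compared. Start windows are from RefSeq on GRCh38.p14, and motifs were searched in 35116 of them. A list is described by its counts and was not tested as a set.

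The 9 genes and all lists were chosen with earlier results of these data known. From each list the text names up to 4 genes called between parental cells and up to 2 called between the clones of either line, by absolute log2 fold change, if their higher group mean was 5 TPM or more. *RAB11A*, *RAB11B*, *RBFOX2* and *RBM47* are named in any case, and so are the cell type markers and, for each of the 9 genes, the 2 genes most like it. Some genes that these rules name are not reported here. Fold changes of the 9 genes were followed under alternatives only where called or where a group averaged at least 1 TPM. The alternatives were no filter on low values, a pseudocount of 0.1, a separate fit of the compared groups, upper quartile and median-of-ratios scaling, the replicate number as a block, an absolute log2 fold change over 1 and leaving out each library.

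On simulated data for the 16093 genes with 200 changed, 166 were called (83%), 0 of them in the wrong direction, with 7 unchanged genes called. The calls took in 96 of the 99 genes with a log2 change of 2 and 70 of the 101 with a log2 change of 1. The changed genes were drawn from those with higher mean levels, and were changed in parental Panc89 alone, with normally distributed noise. Only the comparison of parental cells was run, in which 66% of tested genes were called in the real data. These counts therefore do not describe genes near 0 or the other comparisons. The qPCR, staining, growth, invasion and in vivo data of the study were not analysed here.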

Additional observations from a re-analysis of the deposited data

Results flagged for a closer look

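For 5 of the 9 genes, the change from Paraclone to Holoclone cells differed between the lines in a test of that difference, given here as the log2 fold change in Panc89 minus that in Panc1 with its standard error and limma adjusted p. Of all tested genes, 14.8% were called higher and 20.4% lower in this test (35.1% together). *EPCAM* gave −4.13 ± 0.211 (adjusted p = 1.43e-09), with Holoclone cells above Paraclone cells in Panc1 and below them in Panc89. *ESRP2* gave −1.76 ± 0.237 (adjusted p = 3.63e-05), with Holoclone cells above Paraclone cells in both lines. *SPINT1* gave −1.32 ± 0.348 (adjusted p = 0.00810), with group changes of 0.76 in Panc1 and −0.55 in Panc89, the second not called. *SPINT2* gave −0.63 ± 0.173 (adjusted p = 0.0103), with a change called in Panc89 and not in Panc1. *PRSS8* gave 0.71 ± 0.217 (adjusted p = 0.0182), with all Panc1 libraries at or under 0.213 TPM. The calls of *SPINT2* and *PRSS8* were lost with upper quartile scaling (adjusted p = 0.0804 and 0.0593) and median-of-ratios scaling (adjusted p = 0.0856 and 0.0699).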

How the results depend on the processing

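Of the 78 fold changes of the 9 genes that were followed, 43 kept their direction and their side of the threshold under every alternative run. Between the lines, all 9 genes remained called in parental and in Holoclone cells and 8 in Paraclone cells, except that *SPINT2* fell under an absolute log2 fold change of 1. Of all tested genes, 66%, 65.8% and 60.7% were called in these comparisons. For *FXYD3*, *RAB25*, *PRSS8*, *ST14* and *ESRP1*, which passed the filter only through Panc89, the calls were largely fixed by the filter. The number of the 9 genes called in the other comparisons moved as follows, and the cause was not tested. Between Panc1 clones it went from 4 to 2 with upper quartile scaling, median-of-ratios scaling or a log2 fold change over 1, and to 2 to 3 without single libraries. Between Panc89 clones it went from 7 to 4 with a pseudocount of 0.1 and to 1 with a log2 fold change over 1, and was 6 to 7 without single libraries. The genes lost with that pseudocount kept nearly the same log2 fold change, and the residual spread of the fit is shared with Panc1 libraries near 0. For Panc1 Paraclone against parental cells the number was 3 to 4 without single libraries. *SPINT1* also lost its call there in a separate fit or with a log2 fold change over 1. For Panc89 Holoclone against parental cells the number went from 3 to 0 with a pseudocount of 0.1 or a log2 fold change over 1, and was 1 to 4 without single libraries. For Panc89 Paraclone against parental cells it went from 2 to 1 with a pseudocount of 0.1 or median-of-ratios scaling and to 0 with a log2 fold change over 1, and was 1 to 4 without single libraries. With upper quartile scaling or a separate fit the count stayed at 2 with a change of genes, *RAB25* being lost and *ST14* or *ESRP1* called. The difference between the lines went from 5 to 3 with a log2 fold change over 1.

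Signs that turned belonged to values that were not called. *SPINT2* between Panc1 clones was −0.21 with upper quartile scaling, −0.24 with median-of-ratios scaling and between −0.12 (without Holoclone replicate 2) and 0.14 without single libraries, and against parental cells it was 0.12 and 0.14 in Panc1 Paraclone cells under these scalings and ranged from −0.22 to 0.037 in Panc1 Holoclone cells without single libraries, above 0 without Holoclone replicate 1 or 3. *SPINT1* in Panc1 Holoclone against parental cells ranged from −0.47 to 0.011 (without parental replicate 1), *ST14* between Panc89 clones from −0.032 (without Holoclone replicate 1) to 0.42, and *PRSS8* in Panc89 Paraclone against parental cells from −0.092 to 0.24, below 0 without Paraclone replicate 1 or 3. With a pseudocount of 0.1, which spreads values near 0, the difference between the lines was 0.46 for *RAB25* and −1.002 for *ESRP1*.

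Replicate numbers did not pair the libraries. Deviations from the group means of same-numbered libraries of a line had correlations from −0.318 to 0.190 (18 pairs), and 3 of 18 libraries correlated best with their own number. With the replicate number as a block, 1 of the 9 genes in place of 2 was called for Panc89 Paraclone against parental cells and 3 in place of 4 between Panc1 clones.

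Over all genes, requiring a log2 fold change over 1 lowered the calls from 10623 to 6020 between parental cells, 10583 to 5996 between Holoclone cells, 9767 to 5271 between Paraclone cells, 6006 to 1860 between Panc1 clones, 5746 to 2124 between Panc89 clones and 5655 to 3292 for the difference between the lines. Against parental cells it lowered them from 1759 to 516 (Panc1 Holoclone), 4599 to 1279 (Panc1 Paraclone), 3981 to 1369 (Panc89 Holoclone) and 3120 to 1184 (Panc89 Paraclone). A fit of the 2 groups alone called 3377 genes between Panc89 clones, and without Panc1 Holoclone replicate 3, 1061 genes were called for Panc1 Holoclone against parental cells.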
